A study of Zea mays with 6 samples.

Results

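The DELLA repressors d8 (Zm00001d033680) and d9 (Zm00001d013465) and the gibberellin receptor gid1 (Zm00001d038165) were followed in leaves of maize (Zea mays). They are 3 of the 44320 genes in the deposited table, chosen by identifier, with the names d8, d9 and gid1 taken from that choice. The deposited table gives identifiers without names, and the reference gene table used here ties 0 of the 3 to a name, so the naming was not checked against a sequence or a symbol. All 3 genes had at least 1 TPM (a transcript abundance divided by gene length and expressed as a share of the library) in all 6 libraries.

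The 6 libraries came from leaves at the V8 vegetative stage. There were 3 from KO1, a line whose genotype is labelled ZmGA20ox3 KO, and 3 from wild-type plants (WT). KN5585 is given as the cultivar of KO1 and of WT alike, and no stress was imposed on either, per the labels. Elsewhere the labels write KN5855 for the WT line, so it is not settled here that KO1 and WT share the whole of their background. KO1 is a single line, so a difference from WT in these libraries is a difference of that line. The sources used here do not give the sequence change it carries, the leaf position or the number of plants in each library. The protocol calls the 3 libraries of each genotype biological replications.

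Gibberellins are plant hormones that promote stem and leaf elongation, and ZmGA20ox3 belongs to a family of oxidases that act late in their synthesis. DELLA proteins are nuclear repressors of growth of the GRAS family. When the hormone binds the receptor GID1, the complex binds the DELLA protein, which is then tagged by an F-box ubiquitin ligase and degraded by the proteasome. In maize, d8 and d9 are a duplicated pair of DELLA genes, and dominant alleles of either give dwarf plants that do not respond to gibberellin. In Arabidopsis the transcripts of GID1 genes are known to be under feedback from the hormone. DELLA activity is set to a large extent by protein stability, and protein was not measured in these libraries.

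The comparison of KO1 with WT asks whether transcripts of the receptor and of the repressors differ in leaves of plants edited in a gibberellin synthesis gene. The receptor transcript gid1 was higher in KO1 leaves, at 3.78 times its WT mean, and passed the test. The d8 transcript averaged 0.667 times its WT mean and did not pass. Every KO1 library lay below every WT library for d8, as for 17.6% of all tested genes. The d9 transcript averaged 1.38 times its WT mean, with overlapping groups, and did not pass. In TPM, the sum of both DELLA transcripts differed between genotypes by less than the spread among WT libraries.

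Each gene was tested in limma on log2(TPM + 1) with Benjamini-Hochberg adjustment over all 20990 genes that reached 1 TPM in at least 3 libraries. At an adjusted p under 0.05, 1 of the 3 members passed, against 15.7% of tested genes (9.87% as higher and 5.86% as lower in KO1), so the count of members by itself does not set them apart from the rest of the transcriptome. The background was 2071 genes higher in KO1 and 1230 lower as deposited, and 1656 higher and 1738 lower after quantile normalization. It depended on single libraries. Leaving out KO1 replicates 1, 2 and 3 in turn gave 1482, 1856 and 2246 called genes. Leaving out WT replicates 1, 2 and 3 in turn gave 1314, 2929 and 778. Genes at 1 TPM or more numbered 20697 to 21115 in KO1 libraries and 19282 to 20537 in WT libraries, and sequencing depth is unknown in a table of TPM. The level of ZmGA20ox3 itself, other gibberellin genes and leaf marker genes were not analysed here, since no identifier was tied to a name. The edit and the labelled tissue were therefore not checked in the transcripts.

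The transcript gid1 is named for the receptor that, with gibberellin bound, binds the DELLA proteins. In the KO1 libraries, in order of replicate number, the gid1 level was 129, 157 and 125 TPM. In the WT libraries it was 36.0, 47.7 and 24.8 TPM. The groups were far apart, with the lowest KO1 library at 2.63 times the highest WT library. The means were 137 ± 17.2 TPM in KO1 and 36.2 ± 11.4 TPM in WT (SD, n = 3 each). The difference was 1.93 ± 0.25 on the log2(TPM + 1) scale (SE; 95% interval 1.33 to 2.53), with a limma adjusted p of 0.00697. Separation of the groups with KO1 above WT held for 22.9% of tested genes. A difference at least as large occurred in 945 tested genes, 4.50% of them.

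The position of gid1 among leaf transcripts differed in the same direction. In KO1 libraries its level exceeded that of 94.5% to 95.4% of tested genes, and in WT libraries that of 70.8% to 83.2%. The 3 KO1 libraries were close to each other, with an SD of 0.17 on the log2(TPM + 1) scale, against 0.46 among the 3 WT libraries. The median SD over tested genes was 0.29 in KO1 and 0.24 in WT. In leaf tissue measured in bulk, more cells with the transcript and more transcript per cell cannot be told apart.

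**Figure D1:**
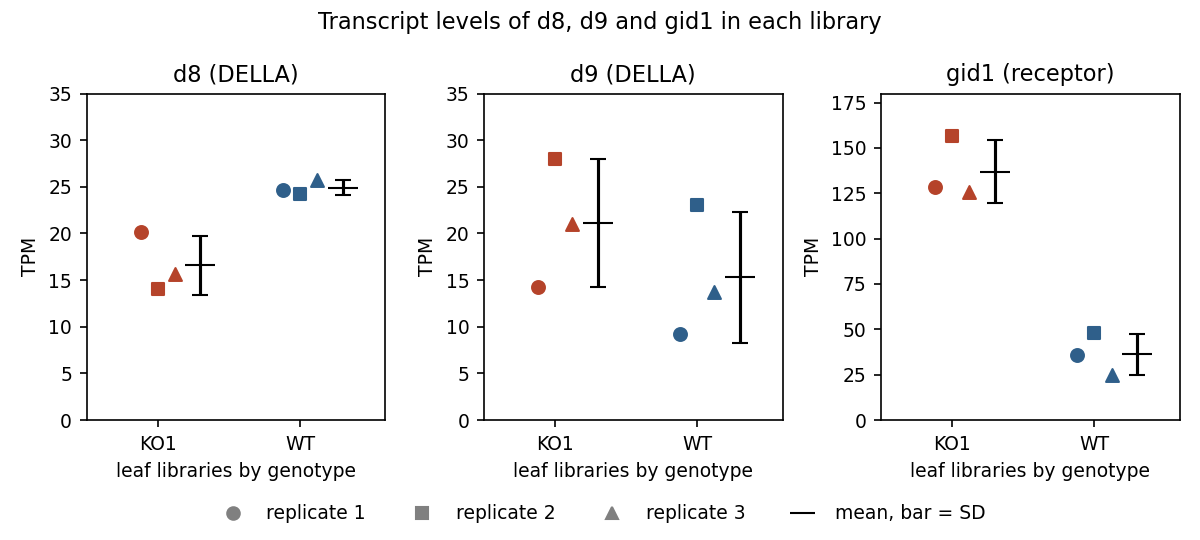
TPM of d8, d9 and gid1 (y axis, linear, from 0, with a wider scale for gid1) in the 3 KO1 and 3 WT leaf libraries (x axis); symbols give the replicate number and black bars the mean ± SD. The gid1 values of KO1 lie between 125 and 157 TPM, all above the highest WT value of 47.7 TPM, the d8 values of KO1 all lie below those of WT, and the d9 values overlap.

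Among the repressors, d8 stood at 20.1, 14.1 and 15.6 TPM in the KO1 libraries. In the WT libraries it stood at 24.7, 24.3 and 25.8 TPM. The groups did not overlap, although KO1 replicate 1 reached 0.830 times the lowest WT library. The means were 16.6 ± 3.16 TPM in KO1 and 24.9 ± 0.781 TPM in WT (SD, n = 3 each). The difference was -0.57 ± 0.17 on the log2(TPM + 1) scale (SE; 95% interval -0.99 to -0.16). It did not pass, with a limma adjusted p of 0.0691 (unadjusted 0.0142). Complete separation with KO1 below WT held for 17.6% of tested genes, and separation in either direction for 40.5%.

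The d8 call lay close to the threshold as deposited, and changed with the scaling and with library weights. It passed under trimmed-mean scaling (limma adjusted p = 0.0386), under quantile normalization (limma adjusted p = 0.0368) and with library weights (limma adjusted p = 0.0189). The estimates in these fits were -0.65, -0.69 and -0.58. The scalings also moved the median difference of all tested genes, which was 0.05 as deposited, -0.02 under trimmed-mean scaling and -0.09 under quantile normalization. Relative to that median, d8 differed by -0.62, -0.62 and -0.61 in that order. Trimmed-mean scaling divides all genes of a library by a common factor, so it leaves this distance nearly unchanged by construction. With each library left out in turn the d8 difference ran from -0.71 to -0.47, with limma adjusted p from 0.0566 to 0.213. It did not pass in any of these 6 fits. A difference as low or lower occurred in 15.5% of tested genes.

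The d8 values lay close together in the WT libraries. Their SD was 0.04 on the log2(TPM + 1) scale, and 3.65% of tested genes had a lower SD in WT. In KO1 the SD of d8 was 0.25, and 42.5% of tested genes had a lower one. The level of d8 exceeded that of 53.4% to 61.9% of tested genes in KO1 libraries and 68.9% to 72.1% in WT libraries.

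The duplicate repressor d9 stood at 14.2, 28.0 and 21.0 TPM in the KO1 libraries. In the WT libraries it stood at 9.20, 23.0 and 13.7 TPM. The groups overlapped: WT replicate 2 lay above KO1 replicates 1 and 3. In TPM, the SD within each genotype was larger than the difference between the means. The means were 21.1 ± 6.89 TPM in KO1 and 15.3 ± 7.05 TPM in WT (SD, n = 3 each). The difference was 0.48 ± 0.37 on the log2(TPM + 1) scale (SE; 95% interval -0.41 to 1.37), with a limma adjusted p of 0.401. The interval spans 0 and reaches well above it, so these libraries do not show that d9 was alike in the genotypes.

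The d9 transcript varied widely among replicates of both genotypes. The highest library was 1.97 times the lowest in KO1 and 2.50 times the lowest in WT. On the log2(TPM + 1) scale the SD was 0.47 in KO1 and 0.62 in WT, and 73.9% of tested genes in KO1 and 87.1% in WT had a lower one. Within KO1 the order of libraries by d9 was the reverse of that by d8, with replicate 2 highest for d9 and lowest for d8. In WT, replicate 2 was likewise highest for d9 and lowest for d8, while the d8 values there were nearly equal.

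**Figure D2:**
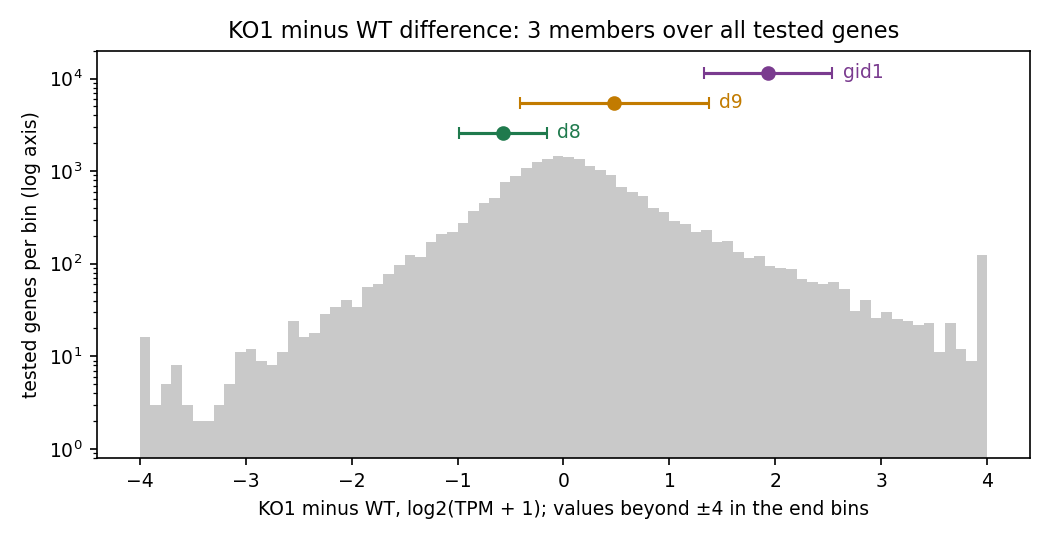
Histogram of the KO1 minus WT difference on the log2(TPM + 1) scale (x axis) for all 20990 tested genes (y axis, genes per bin on a log scale), with the estimate and 95% limma interval of gid1, d9 and d8 drawn above it; the height of these 3 points carries no value. The gid1 interval of 1.33 to 2.53 lies to the right of most genes, the d8 interval lies just below 0, and the d9 interval spans 0.

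The 2 DELLA transcripts were set against each other within each library, where TPM allows levels of different genes to be compared per length. In KO1, d8 was 1.41, 0.502 and 0.741 times d9 in order of replicate number. In WT it was 2.68, 1.05 and 1.89 times d9. So d8 was the more abundant of the pair in all 3 WT libraries and in KO1 replicate 1, while d9 was the more abundant in KO1 replicates 2 and 3. Over all 6 libraries, d8 minus d9 averaged 0.23 ± 0.84 on the log2(TPM + 1) scale (SD, n = 6), with an exact two-sided sign-flip permutation p of 0.531. That spread includes the gap between genotypes, since d8 minus d9 averaged -0.29 ± 0.72 in KO1 and 0.76 ± 0.64 in WT (SD, n = 3 each). Within a genotype, a sign-flip test over 3 libraries cannot go below 0.25 and was not run.

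The balance of the pair was compared between genotypes as the log2 ratio of d8 to d9. It averaged -0.31 ± 0.75 in KO1 and 0.80 ± 0.68 in WT (SD, n = 3 each). The difference was -1.11, with an exact two-sided permutation p of 0.2. The smallest p that this permutation test can give with 3 against 3 is 0.1, so it cannot pass 0.05 here. The groups overlapped, since KO1 replicate 1 lay above WT replicate 2. Ratios within a library do not change when all its genes are scaled by a common factor. Quantile normalization is not of that kind, and the ratios were not run under it.

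The summed DELLA transcript was 34.4, 42.1 and 36.6 TPM in the KO1 libraries, against 33.9, 47.3 and 39.4 TPM in the WT libraries. The groups overlapped throughout. The sums averaged 37.7 ± 3.95 TPM in KO1 and 40.2 ± 6.74 TPM in WT (SD, n = 3 each). The difference of -2.50 TPM had an exact two-sided permutation p of 0.7, and the 9 differences between a KO1 and a WT library ran from -12.9 to 8.20 TPM. Without WT replicate 2 the difference was 1.04 TPM, so its sign rests on that library. Since d8 and d9 are duplicates, reads can match both, and how the counting divided such reads was not tested; the sum does not depend on that division as far as the genes have like lengths.

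The ratio of summed d8 and d9 to gid1 separated the genotypes. It was 0.267, 0.268 and 0.292 in KO1 replicates 1 to 3. In WT replicates 1 to 3 it was 0.941, 0.991 and 1.59. Receptor and repressor transcripts were thus of similar abundance in WT replicates 1 and 2, where gid1 was slightly above the sum. The sum exceeded gid1 in WT replicate 3, and gid1 was far above the sum in all 3 KO1 libraries. The log2 ratio averaged -1.86 ± 0.07 in KO1 and 0.19 ± 0.42 in WT (SD, n = 3 each). The difference was -2.05, with the 9 differences between libraries from -2.57 to -1.69, and the exact two-sided permutation p of 0.1 is the smallest this test can give. The gid1 difference by itself was 1.93 on the log2(TPM + 1) scale, while the DELLA sum overlapped between genotypes.

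**Figure D3:**
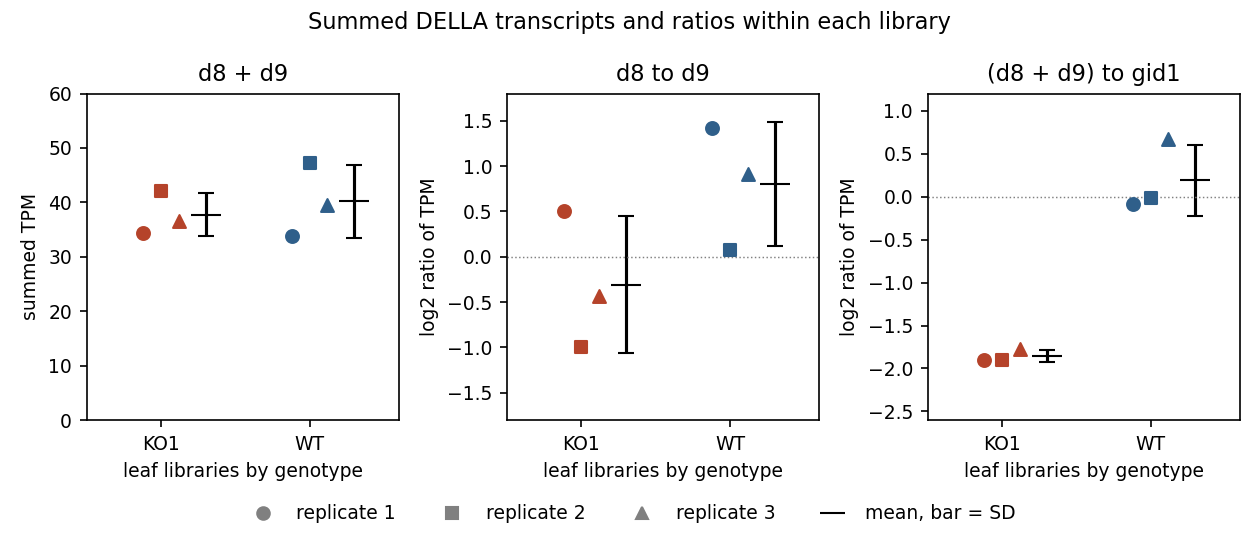
Summed TPM of d8 and d9 (left, linear from 0), log2 ratio of d8 to d9 (middle) and log2 ratio of their sum to gid1 (right) on the y axes, for the KO1 and WT libraries on the x axes; symbols give the replicate number, black bars the mean ± SD, and dotted lines a ratio of equal levels. The sums and the d8 to d9 ratios overlap, while the ratio to gid1 lies between -1.90 and -1.78 in KO1 and between -0.09 and 0.67 in WT.

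The gid1 difference passed the test in all 15 alternative fits, from 1.69 without WT replicate 3 to 2.27 with library weights, with limma adjusted p from 0.00178 to 0.0286. The d9 difference passed in 0 of 15, from 0.19 without WT replicate 1 to 0.80 without WT replicate 2, with limma adjusted p from 0.139 to 0.768. Its unadjusted p was under 0.05 in 1 of these fits, that with a replicate block (limma unadjusted p = 0.0433).

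**Figure D4:**
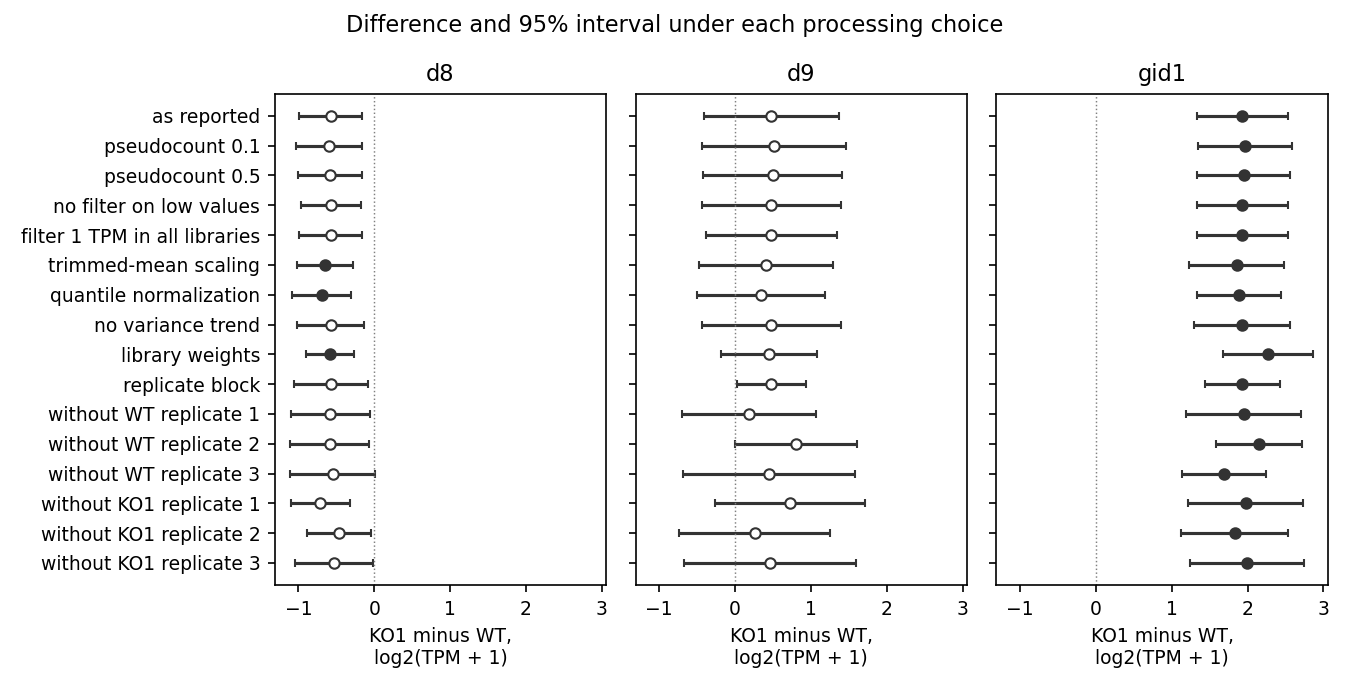
KO1 minus WT difference on the log2(TPM + 1) scale with its 95% limma interval (x axes) for d8, d9 and gid1 under each processing choice (y axis); filled points have an adjusted p under 0.05 and open points do not. All gid1 points are filled, between 1.69 and 2.27, d8 is filled under 3 choices, and no d9 point is filled.

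For each member, the tested gene whose log2(TPM + 1) profile over the 6 libraries was most like it was found by Pearson's r, as a description. With so few libraries in 2 groups, a high r is weak evidence of likeness. The share of tested genes with an r of at least 0.95 is given for each member. For gid1, 627 tested genes, 2.99% of them, had an r of at least 0.95, and the first was Zm00001d042114 (r = 0.9985, n = 6 libraries). Its values were 116, 144 and 109 TPM in KO1 and 26.2, 40.7 and 16.7 TPM in WT, a level close to that of gid1 itself. For d8, 337 genes, 1.61%, reached that value. The first was Zm00001d021966 (r = 0.9969, n = 6 libraries), with 25.0, 19.2 and 21.3 TPM in KO1 and 29.0, 28.6 and 29.1 TPM in WT. For d9, which like gid1 was highest in replicate 2 of both genotypes, the number was 68, or 0.324%. The first was Zm00001d013830 (r = 0.9978, n = 6 libraries), with 4.17, 7.77 and 5.82 TPM in KO1 and 2.57, 6.82 and 3.94 TPM in WT. The files do not pair these identifiers with names.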

How the data were processed

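RNA was sequenced from 3 KO1 and 3 WT maize leaf libraries. The authors deposited 1 table of TPM for 44320 genes, rounded to 2 decimals; per the submitters' processing notes, RSEM, Bowtie2 and DESeq2 were used, and neither their roles nor versions are stated. Genome build and annotation: not given in the sources used here. Each library total is fixed in TPM, so depth is unknown and no counting interval is given. Of the deposited identifiers, 0 of 44320 matched the Zm-B73-REFERENCE-NAM-5.0 gene table of RefSeq.

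Groups and replicate numbers came from the sample titles. Genes with at least 1 TPM in at least 3 of 6 libraries were fitted on log2(TPM + 1) in limma 3.58.1, under R 4.3.3, using a variance trend and no covariates; tests were two-sided, with Benjamini-Hochberg adjustment over all tested genes and a threshold of 0.05. This scale slightly understates the change of low genes. Single values per library were compared by exact permutation in scipy 1.17.1. The genes named are the members and, for each, the tested gene with the highest Pearson's r over the libraries. The fit was tested on simulated data. Alternatives covered the pseudocount, filter, scaling, variance trend, a replicate block, library weights and each library left out. Trimmed-mean scaling left out 30% of ratios and 5% of levels at each end. The members and lists were chosen with earlier results of these data known.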

Additional observations from a re-analysis of the deposited data

How the results depend on the processing

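Of the 15 alternative fits of each member, 15 of 15 kept the direction and side of the threshold for gid1 and for d9, and 12 of 15 for d8, which passed at a difference of -0.69 after quantile normalization, -0.65 after trimmed-mean scaling and -0.58 with library weights. Library weights (8.53 for WT replicate 3 and at most 1.07 for the others) called 6838 genes over the whole table in place of 3301. With 1 library left out the calls numbered 778 to 2929, and the summed d8 and d9 difference was -5.66 to 1.04 TPM, positive without WT replicate 2. The causes were not tested. Both ratios and the d8 to d9 comparison kept their direction in all alternatives run, and an added pseudocount leaves the difference of sums as it is. The d8 to d9 comparison fell close to 0, at 0.01 on the log2(TPM + 1) scale, without WT replicate 1. It reached 0.47 without KO1 replicate 2.

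With a replicate block the differences stay as they are by construction, with limma adjusted p of 0.111 for d8, 0.139 for d9 and 0.0108 for gid1, and 2806 genes called. Differences of same-numbered libraries gave exact sign-flip p values no lower than the 0.25 that 3 pairs allow. Deviations of same-numbered KO1 and WT libraries correlated at -0.01, 0.09 and 0.02 across genes. Those of differently numbered libraries correlated at -0.11 to 0.11. Whether same-numbered libraries shared a harvest or a batch was not tested. The lists of other gibberellin genes and of tissue markers were not run, as no identifier was tied to a name. Unknown depth limits what can be said of the spread of d9.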
